A study of Mus musculus with 81 samples.

Results

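Rearrangements without N insertions are V(D)J joins of the T cell receptor β chain in which no base was assigned to the junctions beyond those of the germline segments. They were taken as the in-frame rearrangements with 0 inserted bases at both junctions, leaving out every rearrangement that encodes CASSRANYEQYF, the CDR3 of the transferred OT-1 cells, or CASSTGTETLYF, the CDR3 of the lymphoma. This gave 32823 entries with 24975 distinct sequences and 50207 templates, out of 377937 productive entries and 581514 entries of any kind in 81 libraries. Neither left-out CDR3 had a copy without N insertions among its 997 and 360 entries. Out-of-frame (non-productive) rearrangements chosen by the same rule, 12748 of 196093, served as reference, since they encode no receptor. No sequence was left out of this reference, so any out-of-frame rearrangement of the OT-1 cells or the lymphoma remains in it.

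All 27 mice were CD45.1 Pep Boy mice (B6.SJL-Ptprc<a> Pepc<b>/BoyJ). The treatment experiment used 15 mice with tumors of EG7.OVA, a derivative of the EL4 lymphoma that makes OVA, and gave each of them 1e6 naïve OT-1 cells, whose transgenic receptor recognizes OVA. The control arm then received mRBC-CTRL at 1e9 cells, and the other arms 2.5e8 or 1e9 cells of mRBC-OVA-4-1BBL-IL-12 (5 mice per arm), which are red blood cells made to display the antigen with a costimulatory ligand and a cytokine. Dosing was on days 0 and 3, and blood was drawn on day 0, between cell transfer and first dose, and on day 7 together with the tumor. In the rechallenge experiment, 7 mice whose first EG7.OVA tumors had been cured were used. They had earlier received 1e6 OT-1 cells and the 2.5e8 dose of mRBC-OVA-4-1BBL-IL-12, and they were bled on days 65 and 73, around a rechallenge with EG7.OVA on day 66, and on days 126 and 136, around a challenge with the parental EL4 on day 127. The 5 age-matched naïve mice were given 5e5 OT-1 cells on day 65, no mRBC, and EG7.OVA on day 66, and were bled on days 65 and 73. The libraries were made from genomic DNA of whole blood or of a tumor cell suspension, so T cell subsets were not separated and fewer T cells of a kind cannot be told apart from less input DNA.

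A TCRβ gene is assembled in the thymus by joining a D segment to a J segment and then a V segment to the D. Exonucleases trim the segment ends, and terminal deoxynucleotidyl transferase (TdT) adds random N bases at both junctions, which is the main source of CDR3 diversity. TdT is scarce in the fetal and newborn thymus, so receptors without N bases are a known feature of early-life T cells. They also arise in adult thymocytes, where the few possible outcomes of trimming without additions make the same join recur.

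Of the 24975 distinct sequences, the ones shown first were found in the most mice. The 3 below are annotated as running from V into J with no assigned D base, and capitals mark the bases assigned to J. The annotation does not show that no D segment took part in the join. Each is the deposited read, 5′ to 3′, which starts in V and ends 1 codon before the last residue of the CDR3.
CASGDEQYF: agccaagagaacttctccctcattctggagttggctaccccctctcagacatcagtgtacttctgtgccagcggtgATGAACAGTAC
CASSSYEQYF: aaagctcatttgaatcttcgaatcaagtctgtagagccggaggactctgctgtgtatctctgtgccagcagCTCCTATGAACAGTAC
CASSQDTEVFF: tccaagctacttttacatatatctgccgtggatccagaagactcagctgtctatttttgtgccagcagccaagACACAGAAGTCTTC

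The next 6 carry D bases, marked in capitals. The first and second were also among the most shared, the third had the most templates in blood, the fourth had the most in tumors, and the last pair were other large tumor clones.
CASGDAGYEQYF: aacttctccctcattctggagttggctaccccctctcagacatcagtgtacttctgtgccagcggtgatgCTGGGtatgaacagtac
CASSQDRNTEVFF: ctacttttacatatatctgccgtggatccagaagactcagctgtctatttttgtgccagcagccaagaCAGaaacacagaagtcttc
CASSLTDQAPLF: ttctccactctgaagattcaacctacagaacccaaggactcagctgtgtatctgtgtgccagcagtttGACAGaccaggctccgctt
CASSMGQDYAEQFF: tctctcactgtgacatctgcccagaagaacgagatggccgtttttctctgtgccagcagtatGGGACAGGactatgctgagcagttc
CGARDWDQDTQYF: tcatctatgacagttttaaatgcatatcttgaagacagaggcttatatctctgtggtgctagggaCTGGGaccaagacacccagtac
TCRBV17-01 clone of mouse 3 at 1e9: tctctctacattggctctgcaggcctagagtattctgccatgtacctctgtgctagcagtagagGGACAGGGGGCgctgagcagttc

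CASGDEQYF kept all but 3 bases of the end of TCRBV13-02 and lost 5 of TCRBJ02-07, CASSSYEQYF lost 6 of TCRBV04-01 and none of TCRBJ02-07, and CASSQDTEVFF lost 1 of TCRBV05-01 and 3 of TCRBJ01-01. The TCRBV17-01 clone held 11 bases of TCRBD01-01 and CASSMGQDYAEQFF held 8. The listed residues, apart from the last, were the translation of the listed bases in all 32823 entries.

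An absence of N bases is an assignment made by the authors' pipeline, since an added base that matches the germline is counted as germline. A D segment was named in 76.5% of them (25101), and in all 25101 the D bases ran directly into J, as 0 inserted bases require. The D stretch was short: its median was 7 bases where a D was named, 3 where a D was assigned but not named, and 6 over all entries, while 6.30% had none (2067 entries). The undeleted D segments are 12 bases (TCRBD01-01) and 14 bases (TCRBD02-01) long. In the genome TCRBD02-01 lies after all J segments of cluster 1, so deletional joining cannot link it to them. Among entries with a J of cluster 1, 11.3% ± 1.66 (SD, n = 27 mice) were nevertheless assigned TCRBD02-01 when no N bases were present, compared with 6.52% ± 0.516 among those with N bases. Names of the D segments were therefore not used to compare groups.

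Rearrangements without N insertions were assigned fewer deleted bases at V and J and had shorter CDR3s. In blood, with values averaged over each mouse's productive rearrangements, 2.00 ± 0.0717 bases were deleted from V (SD, n = 27 mice), compared with 2.69 ± 0.0354 in rearrangements with N insertions, and 2.56 ± 0.0965 against 2.82 ± 0.0261 bases from J. The share annotated as V to J with no assigned D base was 6.36% ± 1.39 against 2.01% ± 0.153. The rule fixes these differences in part as well. An added base that matches the germline counts as undeleted. An entry with no assigned D base has only 1 annotated junction that must lack N bases. The mean CDR3 was 38.5 ± 0.175 bases long without and 41.99 ± 0.0632 bases long with N insertions, a difference that is in part fixed by the rule, since inserted bases lengthen the CDR3. The commonest CDR3 length was 13 residues without (28.8% ± 2.28) and 14 residues with N insertions (31.5% ± 0.601). Accordingly, rearrangements without N insertions made up 36% ± 6.48 of the productive rearrangements with a CDR3 of 10 residues, 12.3% ± 0.990 of those with 13 and 3.05% ± 0.391 of those with 15. Their mean CDR3 length differed little between libraries. Group means lay between 38.2 ± 0.114 bases in day 7 blood at 2.5e8 (n = 5) and 38.7 ± 0.589 bases in tumors of the same arm (n = 5).

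**Figure D1:**
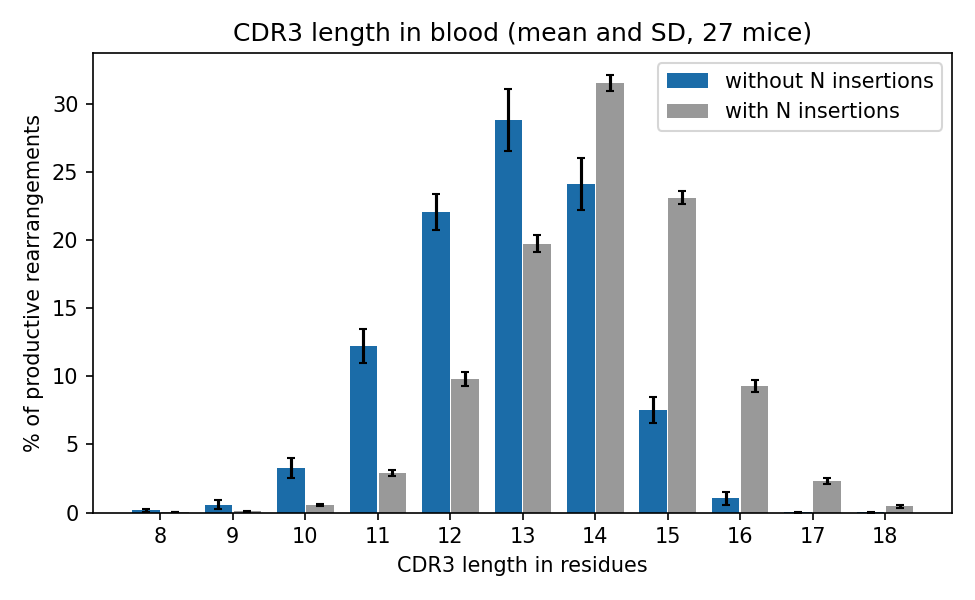
CDR3 length from 8 to 18 residues (x axis) against the percent of productive rearrangements in blood (y axis) for rearrangements without and with N insertions. Bars are means over 27 mice and error bars are SD, and the bars without N insertions peak at 13 residues, 1 residue below those with N insertions.

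Depth set the precision of each library. Productive templates ranged from 2355 to 77041 per library, and from 482 to 23605 once OT-1 and the lymphoma were left out, with 285 to 17569 distinct productive rearrangements and 25 to 1453 without N insertions. A template is an estimated input molecule, and Wilson 95% intervals below cover counting error only. The shallowest library was the day 7 blood of mouse 5 at 1e9. Mouse 1 of the mRBC-CTRL arm is without day 7 blood here, and mouse 1 at 1e9 is without day 0 blood (not analysed here). The day 73 blood assigned to cured mouse 2 has labels that disagree on the mouse number. It shared 39 rearrangements with at least 4 inserted bases with the other libraries of cured mouse 2 and at most 6 with those of any other cured mouse, and all 28 libraries of cured mice shared most with their own mouse.

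The share of distinct productive rearrangements without N insertions was compared across arms, tissues and days. It ranged from 7.11% to 10.6% over the 81 libraries, with a median of 8.72%, and no comparison between arms, tissues or days passed its test. In day 0 blood the 5 mRBC-CTRL mice had 9.38%, 8.13%, 10.6%, 8.78% and 9.16%. The 10.6% of mouse 3 came from 205 of 1933 rearrangements (95% interval 9.31% to 12.1%). The 2.5e8 arm had 8.77%, 9.01%, 9.22%, 8.85% and 8.33% on the same day, and the 4 mice at 1e9 had 9.36%, 8.51%, 9.19% and 8.53%. The 3 arms overlapped before the first dose.

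On day 7 the share in blood was 8.51%, 8.01%, 8.79% and 9.27% in 4 mRBC-CTRL mice. It was 9.10%, 9.90%, 8.67%, 9.26% and 8.21% at 2.5e8 and 9.28%, 8.36%, 8.64%, 9.35% and 8.77% at 1e9. The groups again overlapped, and the last value rests on 25 of 285 rearrangements (95% interval 6.01% to 12.6%). In tumors the share was 8.43%, 8.78%, 7.86%, 8.72% and 8.98% with mRBC-CTRL. It was 9.24%, 9.38%, 8.002%, 7.11% and 8.80% at 2.5e8, and 7.81%, 10%, 8.04%, 8.09% and 9.23% at 1e9. The lowest and highest tumors were also shallow, with 394 and 380 rearrangements.

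Differences from mRBC-CTRL lay between −0.373 percentage points (day 0 blood, 2.5e8) and 0.386 points (day 7 blood, 2.5e8). Without mRBC-CTRL mouse 3 the former was −0.0241 points, and leaving out 1 mouse at a time moved the latter between 0.168 (without mouse 2 at 2.5e8) and 0.595 points (without mRBC-CTRL mouse 5). The 6 comparisons had adjusted p between 0.917 and 0.937 (2-sided exact permutation tests over mice, Benjamini-Hochberg over the 6). Tumors were lower than day 7 blood of the same mouse by a mean of 0.291 percentage points, 8.57% ± 0.781 against 8.87% ± 0.519 (SD, n = 14 mice). The tumor was the higher of the pair in 5 of 14 mice (2-sided sign-flip permutation test, p = 0.276). Within arms the change from day 0 to day 7 blood was −0.525 points with mRBC-CTRL (n = 4), 0.192 points at 2.5e8 (n = 5) and −0.118 points at 1e9 (n = 4). The exact sign-flip p values were 1, 0.5 and 1, and such tests cannot go below 0.0625 with 5 mice or 0.125 with 4.

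**Figure D2:**
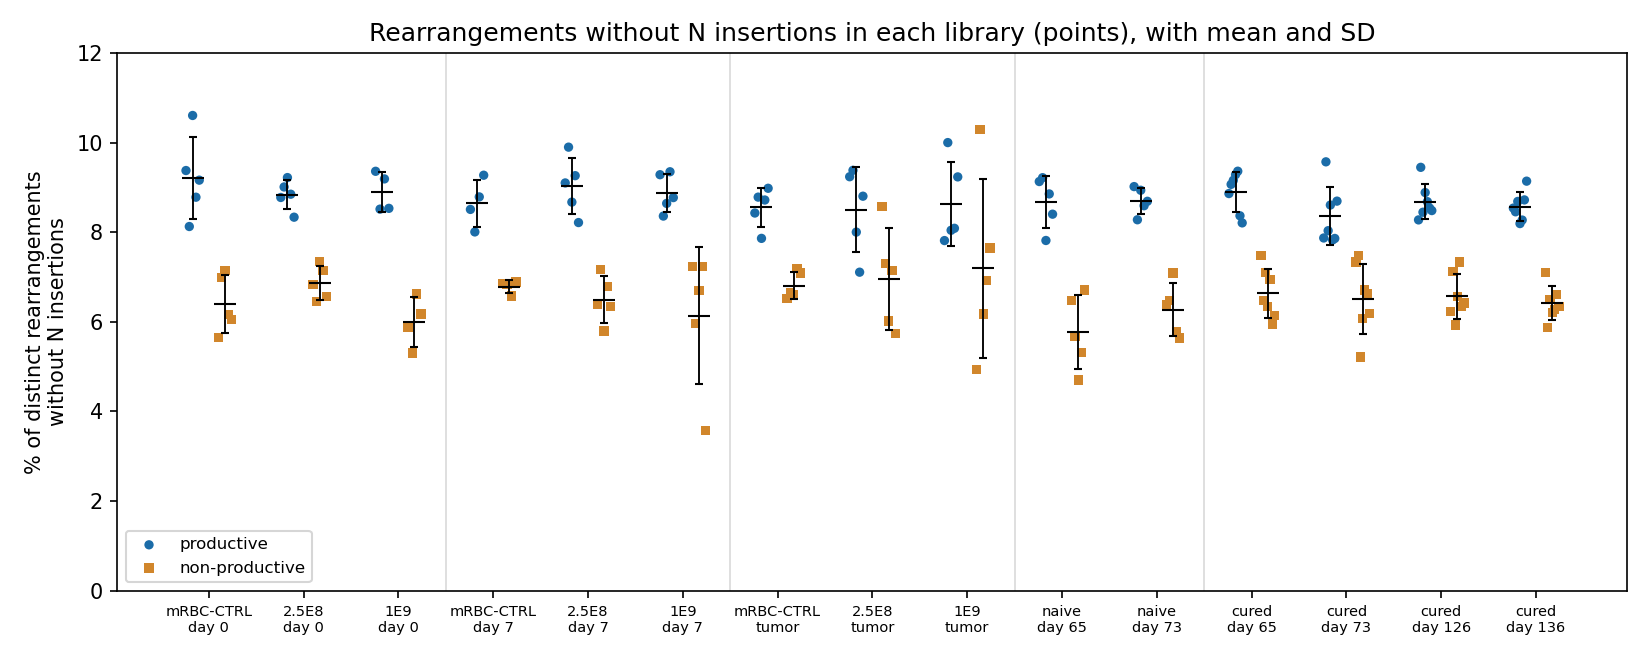
Percent of distinct rearrangements without N insertions (y axis) in each of the 81 libraries, by group (x axis), for productive (circles) and non-productive (squares) rearrangements. Black lines are group means with SD, and the productive means lie between 8.35% and 9.21% in every group, above the non-productive means of 5.77% to 7.19%.

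In the rechallenge experiment the lowest, median and highest shares of the 7 cured mice were 8.21%, 9.07% and 9.36% on day 65, and 7.83%, 8.03% and 9.57% on day 73. They were 8.27%, 8.54% and 9.45% on day 126, and 8.19%, 8.54% and 9.14% on day 136. Naïve mice had 9.13%, 9.22%, 7.81%, 8.85% and 8.40% on day 65 and 9.02%, 8.28%, 8.94%, 8.59% and 8.69% on day 73. The ranges of cured and naïve mice overlapped on both days.

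From day 65 to day 73 the share changed by −0.550 ± 0.785 percentage points in the cured mice (higher afterwards in 2 of 7, exact sign-flip p = 0.0938) and by 0.0187 ± 0.759 points in the naïve mice (higher in 2 of 5, exact p = 0.938). The difference between these changes was −0.569 points (exact permutation test, p = 0.237), and −0.293 points without naïve mouse 3 (exact p = 0.512). Measured as a share of templates, the same interval gave a change of −0.796 ± 0.679 points in the cured mice, from 8.94% ± 0.637 to 8.15% ± 0.435, lower afterwards in all 7. Its exact p of 0.0156 is the smallest that 7 mice allow and became 0.312 after Benjamini-Hochberg adjustment over the 20 comparisons made with that measure. The share of templates was higher on day 126 than on day 73 by 0.422 ± 0.369 points in 6 of 7 mice (exact p = 0.0469, adjusted over the 20 p = 0.312). In naïve mice the template share changed by −0.0466 ± 0.661 points, and the change in cured minus naïve mice was −0.749 points (exact permutation p = 0.0884). Without the 10 largest clones of each library the change in cured mice was −0.579 points (exact p = 0.141).

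Around the EL4 challenge the share of rearrangements changed by −0.107 ± 0.598 points (higher afterwards in 4 of 7 cured mice, exact p = 0.641). From day 73 to day 126 it changed by 0.328 ± 0.389 points (higher in 5 of 7, exact p = 0.0781). Cured and naïve mice differed by 0.218 points before EG7.OVA (exact permutation p = 0.481), a difference of 0.000472 without naïve mouse 3 and 0.351 without naïve mouse 2, and by −0.351 points after it (exact permutation p = 0.294). Without cured mouse 2, whose day 73 library had the highest share, the latter difference was −0.554 points (exact permutation p = 0.039).

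Reading frames differed in the blood of every mouse and in most tumors. In blood, with each sequence counted once per mouse, 8.73% ± 0.356 of productive and 6.45% ± 0.433 of non-productive rearrangements had no N insertions (SD, n = 27 mice). The difference of 2.28 ± 0.537 percentage points ranged from 1.198 to 3.73 and was positive in 27 of 27 mice (2-sided sign-flip permutation test, p = 1e-05, the smallest that 100000 resamples can give). In tumors the shares were 8.57% ± 0.754 and 6.98% ± 1.25. The difference of 1.58 ± 0.932 points was positive in 13 of 15 mice (sign-flip permutation p = 0.00026). The exceptions were mouse 2 at 1e9 (10% against 10.3%) and mouse 4 at 2.5e8 (7.11% against 7.14%), both of them shallow. As a share of templates the tumor difference was 1.87 points (permutation p = 0.53). All 66 blood libraries and 13 of 15 tumor libraries had the higher share among productive rearrangements.

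The shift extended to rearrangements with few inserted bases. Averaged over 27 mice with blood and tumor combined, 13.2% ± 0.483 of productive rearrangements had 1 inserted base and 17.0% ± 0.596 had 2, compared with 10.3% ± 0.477 and 14.2% ± 0.546 of non-productive ones. The mean number of inserted bases was 3.44 over all productive and 4.27 over all non-productive entries.

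The segments used also differed. V and J shares in blood were compared between productive rearrangements without and with N insertions of the same mouse. Of 24 V segments with a mean share of at least 0.1%, 8 made up more of the rearrangements without N insertions (33.3%) and 5 made up less (20.8%). Of 12 J segments, 5 made up more (41.7%) and 2 made up less (16.7%), all at adjusted p under 0.05 (sign-flip permutation tests over 27 mice, Benjamini-Hochberg over the 36 segments). Shares of one library sum to a whole, so these shifts are not independent of each other.

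TCRBV04-01 had the largest shift among V segments. Its share ran from 1.62% to 4.31% over mice without N insertions (median 2.53%) and from 3.77% to 5.12% with them (median 4.66%). The means were 2.56% ± 0.554 and 4.63% ± 0.365, lower without N insertions in 27 of 27 mice (permutation test, adjusted p = 3.27e-05). TCRBV19-01 fell from 7.72% ± 0.334 to 6.38% ± 1.09, lower in 24 mice, and TCRBV31-01 from 6.01% ± 0.377 to 5.01% ± 0.759, lower in 25 (permutation tests, each adjusted p = 3.27e-05). The 3 largest rises were TCRBV01-01, from 5.58% ± 0.440 with to 6.67% ± 0.828 without N insertions, TCRBV13-02, from 10.9% ± 0.381 to 11.9% ± 0.985, and TCRBV20-01, from 3.35% ± 0.255 to 4.35% ± 0.708. They were higher in 26, 24 and 26 of 27 mice, with adjusted p of 3.27e-05, 6e-05 and 3.27e-05. The ranges over mice overlapped for each of these falls and rises.

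Among J segments, TCRBJ02-07, the segment used most, fell from 19.1% ± 0.493 with to 16.1% ± 1.36 without N insertions, and TCRBJ02-03 fell from 8.66% ± 0.365 to 6.85% ± 0.982, both lower in 27 of 27 mice (permutation tests, adjusted p = 3.27e-05 each). TCRBJ01-01 rose from 10.9% ± 0.581 to 12.5% ± 1.54 (22 mice), TCRBJ02-02 from 5.65% ± 0.328 to 6.93% ± 1.09 (25 mice) and TCRBJ01-02 from 6.29% ± 0.212 to 7.25% ± 1.26 (21 mice). Their adjusted p values were 3.27e-05, 3.27e-05 and 0.00252. For each of these J segments, falls and rises alike, the ranges over mice overlapped.

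The same comparison among non-productive rearrangements, which share the mice but not the sequences, gave the same direction for 13 of the 13 V segments and 6 of the 7 J segments called above, of which 6 V and 5 J segments also passed the threshold there. The exception in direction was TCRBJ02-02, at 5.86% ± 1.78 without and 5.93% ± 0.510 with N insertions (permutation test, adjusted p = 0.922). TCRBJ02-07 was 21.5% ± 2.22 without and 24.3% ± 1.30 with them (permutation test, adjusted p = 0.00037). TCRBV04-01, by contrast, was at 7.02% ± 1.73 and 7.16% ± 0.383 among non-productive rearrangements (permutation test, adjusted p = 0.828). Whether its shift differed between frames was not tested. In tumors 12 of the 13 V segments and 6 of the 7 J segments moved in the same direction as in blood, and 3 and 1 of them passed the threshold with 15 mice.

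**Figure D3:**
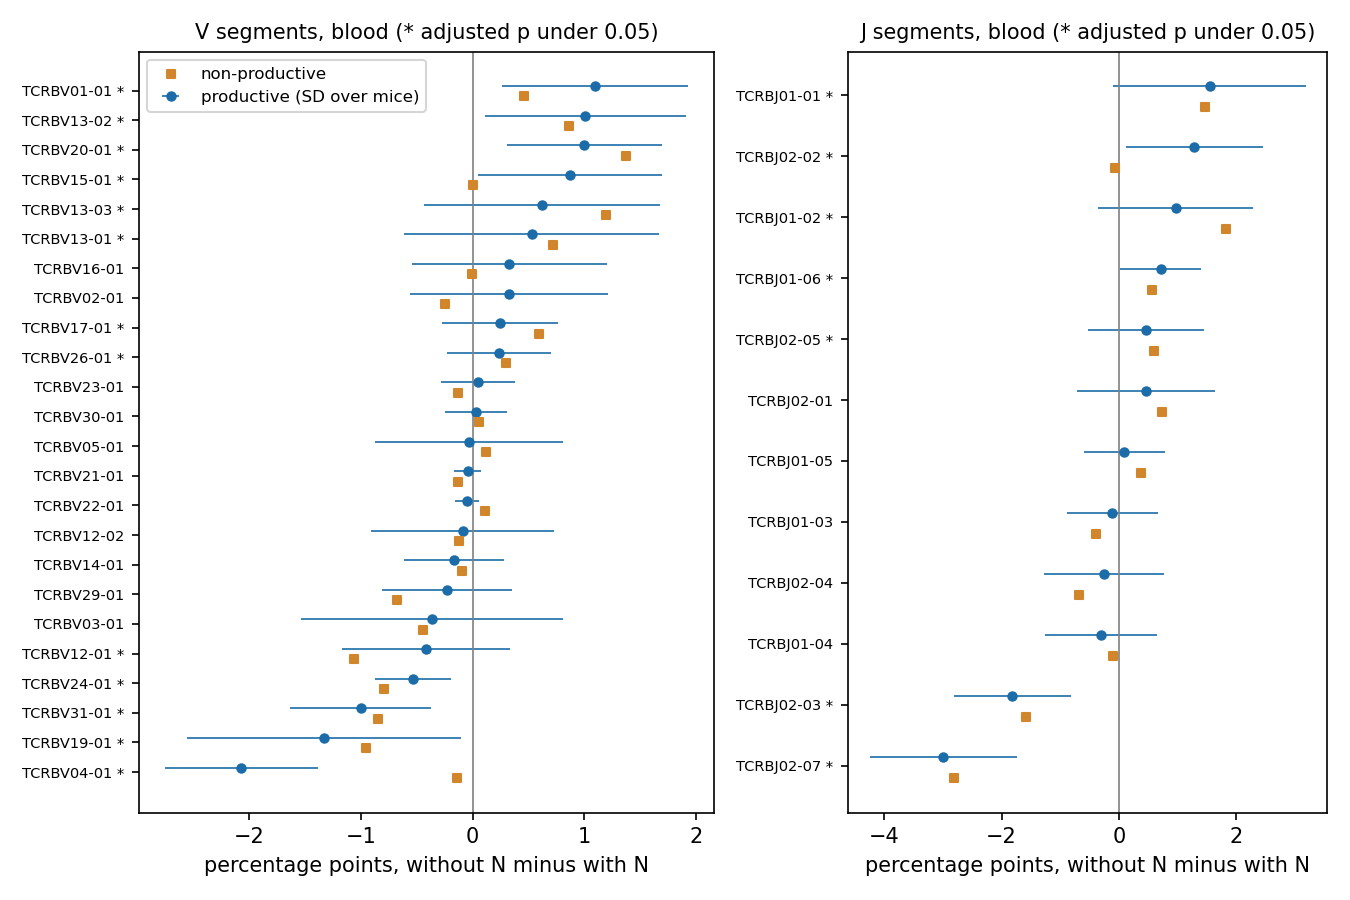
Difference in segment share in blood, without minus with N insertions in percentage points (x axis), for 24 V and 12 J segments (y axis). Circles with bars are the mean and SD of productive rearrangements and squares the mean of non-productive ones over 27 mice. TCRBV04-01 lies at −2.07 points among productive and −0.139 points among non-productive rearrangements, whereas TCRBJ02-07 lies at −2.99 and −2.80.

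Rearrangements without N insertions recurred between mice far more often than others (given without a test). Per mouse, 36.7% ± 2.21 of the productive sequences without N insertions were found with identical bases in at least 1 of the other 26 mice, ranging from 34.2% to 44.9%, compared with 6.94% ± 0.404 of those with N insertions, ranging from 6.20% to 7.73%. The ranges over mice did not overlap. Weighting the sequences with N insertions to the CDR3 lengths of those without moved their share to 8.73% ± 0.608. Counting only mice of the other experiment, the shares were 24.6% ± 4.85 and 4.22% ± 1.03. Among non-productive sequences they were 11.6% ± 1.78 and 2.20% ± 0.468. Sharing declined with each inserted base, to 21.8% ± 1.29 of productive sequences with 1 inserted base, 10.9% ± 0.897 with 2 and 0.498% ± 0.278 with 6.

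**Figure D4:**
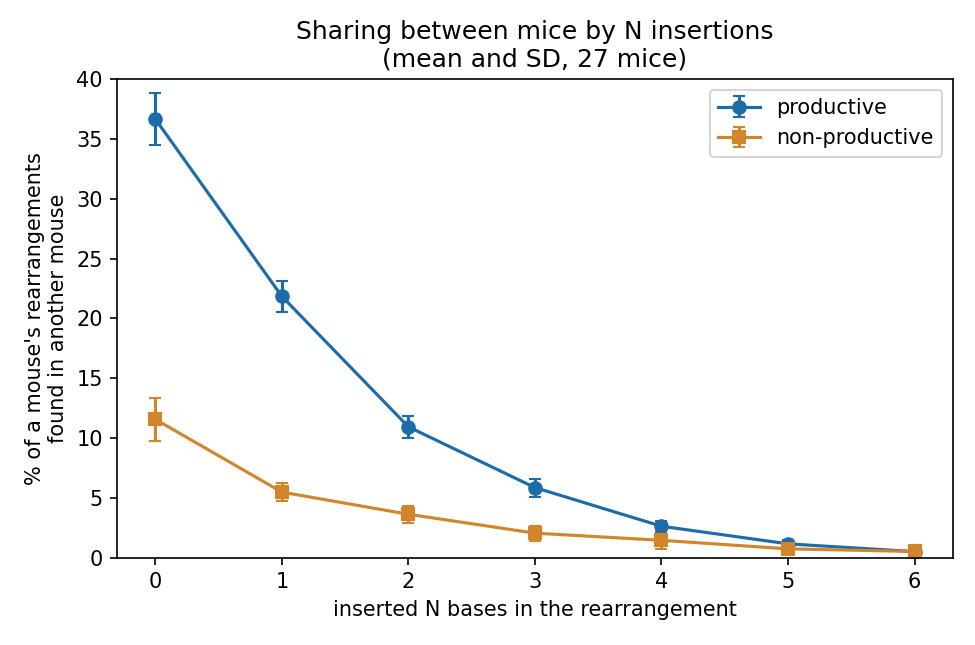
Percent of a mouse's distinct rearrangements found in at least 1 other mouse (y axis) by the number of inserted N bases (x axis), for productive (circles) and non-productive (squares) rearrangements, as mean and SD over 27 mice. The productive curve starts at 36.7% with 0 inserted bases and is at 0.498% with 6, and the non-productive curve starts at 11.6%.

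Rearrangements without N insertions were 7.06% of the 353605 distinct productive sequences of the study, 30.8% of the 14557 found in 2 or more mice, 45.1% of the 3272 in 3 or more and 55.7% of the 488 in 5 or more. Above that the share was lower, at 33.3% of the 24 sequences in 10 or more mice. The most widely shared productive sequence with N insertions was found in 17 mice and the most widely shared without in 15. Among non-productive sequences these were 27 and 8 mice, and the 13 non-productive sequences in 15 or more mice all had N insertions. Any out-of-frame rearrangement of the transferred OT-1 cells or the lymphoma remains among the non-productive sequences. Whether the widely shared ones belong to those cells was not tested. Among productive sequences without N insertions, those with no assigned D base recurred most, with 35.5% of 1089 distinct sequences in 2 or more mice. This compared with 19.5% of 4236 sequences with an unnamed D and 16.6% of 19650 with a named D.

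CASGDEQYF and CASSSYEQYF were each found with identical bases in 15 mice, 7 and 6 of them in the treatment experiment, with 71 and 54 templates in all and at most 7 in a library. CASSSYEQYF was found in no tumor, and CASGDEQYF in 1. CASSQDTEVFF followed with 12 mice and 18 templates, never more than 1 in a library, in the tumors of 6 mice. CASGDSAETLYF and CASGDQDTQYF were found in 11 mice each, and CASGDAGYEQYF, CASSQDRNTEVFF and a CDR3 of 15 residues joined from TCRBV02-01, 9 bases of TCRBD02-01 and TCRBJ02-07 with no base deleted from V or J in 10 each. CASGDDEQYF and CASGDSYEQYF, both of TCRBV13-02 and TCRBJ02-07 with no assigned D base, were found in 9. TCRBV13-02 was used by 6 of these 10 sequences. Among the 100 most shared, which were found in 6 to 15 mice, it was used by 31, TCRBJ02-07 was used by 31, and 34 had no assigned D base. Over all productive rearrangements without N insertions in blood, the mean shares per mouse were 11.9% for TCRBV13-02 and 16.1% for TCRBJ02-07. Sequences with no assigned D base were 1089 of all 24975 distinct sequences. Counting productive rearrangements with and without N insertions together, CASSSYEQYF was encoded by 23 different nucleotide sequences in 21 mice.

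The share found in other mice is given by group without a test. Group means ran from 31.2% ± 11.03 in day 7 blood at 1e9 (n = 5), which holds the shallowest library with 12% of 25 sequences, to 39.4% ± 4.39 in naïve mice on day 73 (n = 5). Tumors had 36.9% ± 3.15 with mRBC-CTRL, 38.0% ± 3.56 at 2.5e8 and 36.3% ± 6.91 at 1e9.

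Counting templates instead of rearrangements left most blood libraries where they were, with a median of 8.63% over 66, and spread the tumors widely. With mRBC-CTRL the tumor template share was 3.81%, 3.65%, 9.26%, 5.46% and 4.89%. At 2.5e8 it was 6.61%, 2.33%, 5.77%, 3.44% and 6.26%. At 1e9 it was 9.75%, 11.1%, 6.47%, 7.36% and 33.1%. The values above 7% were those of mice 1, 2, 4 and 5 at 1e9 and of mRBC-CTRL mouse 3.

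The mean was 13.5% ± 11.1 at 1e9 and 5.41% ± 2.28 with mRBC-CTRL, a difference of 8.13 points (2-sided exact permutation test, p = 0.0397, adjusted over the 6 comparisons p = 0.238). Without mouse 5 the 1e9 mean was 8.66% ± 2.12 (n = 4) and the difference 3.24 points (exact p = 0.0714). With its largest clone left out of all mice the difference was 2.61 points (exact p = 0.119). Against day 7 blood of the same mouse, the template share was lower in the tumor in 3 of 4 mRBC-CTRL mice, 5 of 5 at 2.5e8 and 2 of 5 at 1e9. Over the 14 mice the mean difference was −1.13 ± 4.62 points (sign-flip permutation p = 0.399). Without mouse 5 at 1e9 it was −2.16 ± 2.61 points, lower in 10 of 13 (permutation p = 0.0145), and without the 10 largest clones of each library it was −0.345 points (permutation p = 0.393). The 10 largest clones held 30.1% to 70.1% of the templates of a tumor (median 48.5%) and 0.593% to 23.2% of a blood library (median 1.62%). Rearrangements without N insertions were 64 of the 660 largest blood clones (9.70%) and 10 of the 150 largest tumor clones (6.67%). Over all productive rearrangements their mean share per mouse was 8.73% in blood and 8.57% in tumors. Of the tumor clones, 7 of 50 were at 1e9, 2 of 50 with mRBC-CTRL and 1 of 50 at 2.5e8, and whether these counts differed was not tested. Blood clones were counted in each library, so 1 clone could count in several libraries of a mouse.

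**Figure D5:**
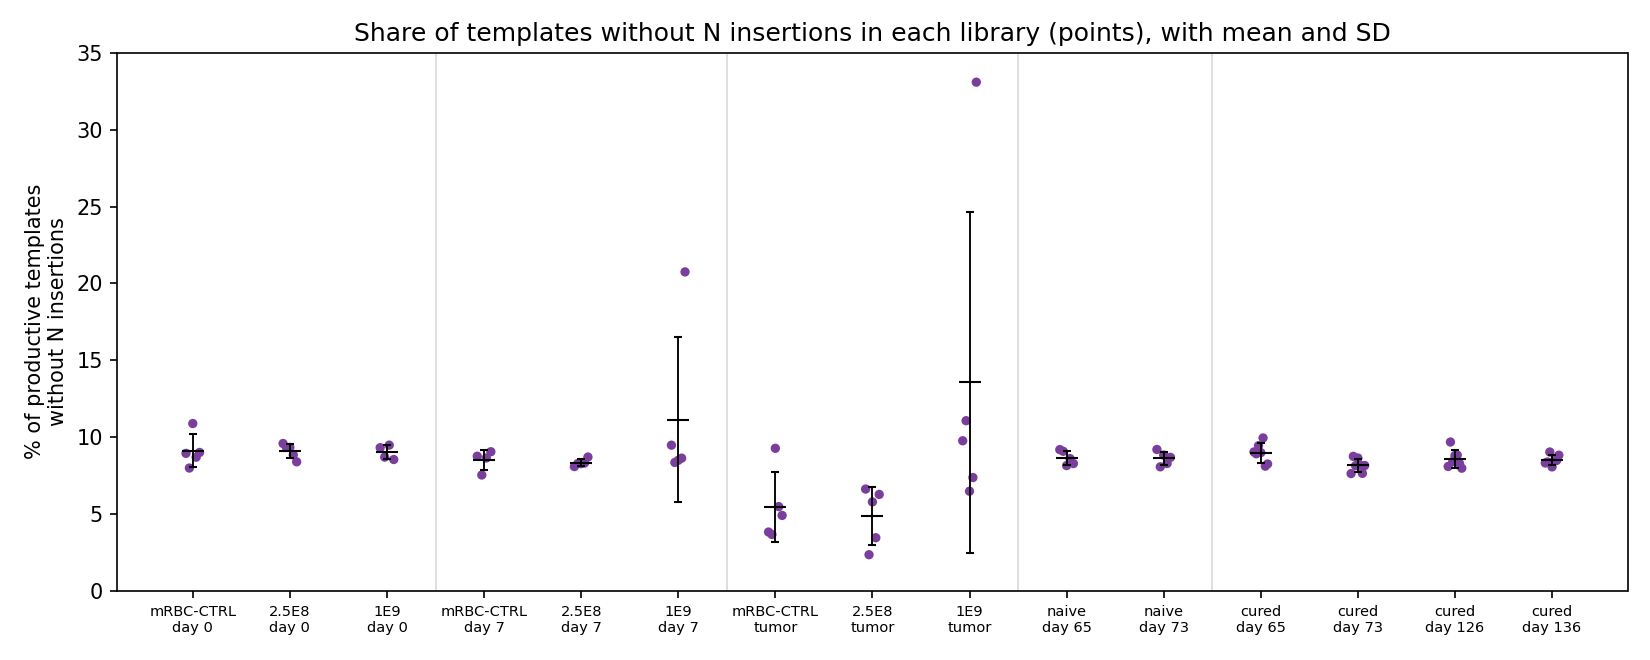
Percent of productive templates without N insertions (y axis) in each of the 81 libraries (points), by group (x axis), with mean and SD in black. Most libraries lie near the median of 8.53%, tumors of the mRBC-CTRL and 2.5e8 arms reach down to 2.33%, and mouse 5 at 1e9 lies at 20.7% in day 7 blood and 33.1% in its tumor.

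The high values of mouse 5 at 1e9 came from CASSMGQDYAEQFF, joined from TCRBV19-01, 8 bases of TCRBD01-01 and TCRBJ02-01. It was absent from 6295 templates of day 0 blood, which allows a share of up to 0.0477%. It had 66 of 482 templates in day 7 blood (13.7%, 95% interval 10.9% to 17.1%) and 1131 of 3873 in the tumor (29.2%, 27.8% to 30.7%), the largest clone of both libraries once OT-1 and the lymphoma were left out. One other mouse, of the rechallenge experiment, had a single template of it. The TCRBV17-01 clone of mouse 3 at 1e9, joined to TCRBJ02-01, was likewise found only after dosing among that mouse's libraries. It had 0 of 3016 templates on day 0 (up to 0.0995%), 64 of 5944 on day 7 (1.08%, 0.844% to 1.37%) and 164 of 4037 in the tumor (4.06%, 3.50% to 4.72%).

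Like the clones above, other large tumor clones without N insertions made up a smaller share of blood than of the tumor. All of these clones were picked for their size in tumors, so this difference is in part fixed by the choice. The other large tumor clones were chosen after their values were seen, and whether the difference varied between arms was not tested. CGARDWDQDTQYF of mRBC-CTRL mouse 3 had 899 of 23605 templates in the tumor (3.81%), but 2 of 2621 on day 0 and 4 of 6235 on day 7 (0.0642%, 0.0250% to 0.165%). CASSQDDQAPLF of the same mouse had 437 templates in the tumor (1.85%) and none in either blood library, which allows up to 0.0481% on day 7. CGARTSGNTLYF of mouse 1 at 2.5e8 had 145 of 13790 templates in the tumor (1.05%), 8 of 3668 on day 7 (0.218%) and none of 7417 on day 0. Summed over all blood libraries, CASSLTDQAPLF of cured mouse 5 had the most templates of any sequence without N insertions (201). Its most in a single library was 56, fewer than the 66 of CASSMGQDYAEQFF in day 7 blood. Within its own mouse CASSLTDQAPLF was the largest or second largest clone on all 4 days. It had 56 of 8395, 54 of 5010, 48 of 11939 and 43 of 22115 templates on days 65, 73, 126 and 136, or 0.667%, 1.08%, 0.402% and 0.194%.

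Clone size was compared within mice. The share with 2 or more templates in a library, averaged over a mouse's blood libraries, was 29.6% ± 5.58 without and 29.2% ± 4.35 with N insertions (difference 0.409 ± 2.31 points, higher in 14 of 27 mice, permutation p = 0.367). In tumors it was 39.4% ± 5.77 and 36.3% ± 2.45 (difference 3.17 ± 5.01 points, higher in 12 of 15 mice, permutation p = 0.0189). The comparison depended on CDR3 length. When rearrangements with N insertions were weighted to the CDR3 lengths of those without, the differences were −3.92 points in blood (permutation p = 1e-05) and −2.02 points in tumors (p = 0.225 by permutation). By size class, rearrangements without N insertions were 8.66% of the 259582 blood entries with 1 template, 9.12% of those with 3 or 4 templates, and 0 of 27 entries with 100 or more (95% interval up to 12.5%). In tumors they were 10 of 136 entries with 100 or more templates (7.35%, 4.04% to 13.0%). Blood entries were counted once per library, so 1 clone of a mouse could count in several of its libraries. The interval for the 27 blood entries treats them as separate clones and so does not cover this.

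In the cured mice, sequences without N insertions were found again more often. Of those present on day 65, 7.44%, 4.03%, 6.21%, 8.51%, 10.1%, 6.02% and 4.51% in mice 1 to 7 recurred in at least 1 later blood library of the same mouse, a mean of 6.68% ± 2.15 (23 to 57 sequences per mouse). With N insertions it was 1.53% ± 0.254, ranging from 1.21% to 1.96%. The difference of 5.16 ± 2.03 points was positive in 7 of 7 mice (2-sided exact sign-flip test, p = 0.0156, the smallest 7 mice allow). The same day 65 sequences were also found in the later libraries of other cured mice, at 4.67% ± 0.491 without and 0.667% ± 0.0368 with N insertions. Own mouse minus other mice was thus 2.02 ± 2.03 points without N insertions, ranging from −0.205 to 5.35, and 0.859 ± 0.252 points with them, ranging from 0.515 to 1.25. In cured mice 2 and 7 sequences without N insertions were found no more often in their own later blood than in that of the other cured mice. Whether own mouse minus other mice differed between sequences without and with N insertions was not tested. Limited to sequences seen in a single mouse of the study, the difference between sequences without and with N insertions was 2.47 points (exact p = 0.0156).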

How the data were processed

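Genomic DNA of 66 blood samples and 15 tumors of 27 mice was sequenced with the immunoSEQ assay, a bias-controlled multiplex PCR of rearranged TCRβ genes. The authors deposited the template count of each rearrangement, without normalization, and their pipeline's segment names, deletions, reading frame and other annotations, including the number of inserted bases at each junction. The genome build was not given in the sources used here, so no coordinates are printed. The order of D and J segments was taken from RefSeq, where all 36 tested segments had a symbol. The 2 junctions' inserted bases were summed. Palindromic bases are not listed separately, and their treatment is unknown. Template counts estimate input molecules, so sampling limits each library: 482 to 23605 productive templates remained per library after OT-1 and the lymphoma CDR3 were left out.

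The main measure was the percent of distinct productive rearrangements with 0 inserted bases. Groups were compared by 2-sided exact permutation tests over mice and paired samples of a mouse by sign-flip tests, exact under 10 mice and with 100000 resamples otherwise. The segment test was also run on simulated V segments with the same expected use in every mouse. That run cannot show how the calls hold under variation between mice, and J segments were not simulated. Samples of one mouse were paired by the number in the labels. Numbers shared between arms do not pair mice, since those are different animals. Wilson intervals are at 95%, and the floor of a count of 0 was 3 templates. Named rearrangements are the 10 found in the most mice and the ones with most templates in blood and in tumors; other large tumor clones were chosen after their values were seen. Named segments are the 3 largest rises and 3 largest falls called among V and among J. The members and lists were chosen with earlier results of these data known. Python 3.11.15, NumPy 2.4.6, pandas 2.3.3 and statsmodels 0.14.6 were used.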

Additional observations from a re-analysis of the deposited data

Results flagged for a closer look

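Of 30 sets of values tested for a sample far from its group (the share of rearrangements and of templates in each of 15 groups), 2 stood out, and chance alone gives about 1 in 20. Both were template shares of mouse 5 at 1e9, at 20.7% in day 7 blood, where the next highest mouse had 9.46%, and at 33.1% in the tumor, where the next highest had 11.1%. In both libraries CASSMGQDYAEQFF was the largest clone, and the day 7 blood library was the shallowest of the study. The share of distinct rearrangements in the same libraries was 8.77% and 9.23%.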

How the results depend on the processing

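The difference between productive and non-productive rearrangements in blood kept its direction and its side of 0.05 under the alternatives run. So did the difference in day 65 sequences found again in later blood of cured mice, but much of it was also found between mice. In the same mouse 6.68% were found again without and 1.53% with N insertions. In the later blood of other cured mice these were 4.67% and 0.667%. Comparisons between arms, tissues and days were small against the spread between mice, and depth limits them. Differences are in percentage points, and the cause of each change was not tested. Counting templates gave −0.165 in day 7 blood (2.5e8 minus mRBC-CTRL), −0.766 and 2.55 for day 7 minus day 0 at 2.5e8 and 1e9, 2.42 for tumor minus day 7 blood at 1e9, −0.0466 in naïve mice, −0.796 and 0.422 in cured mice around and after EG7.OVA (past 0.05 unadjusted) and 1.87 between frames in tumors (no longer past it). Keeping both left-out CDR3s in the denominator gave −0.110 for tumors at 1e9 minus mRBC-CTRL. Subsampling to the smallest library gave −0.126 and 0.361 for tumors at 1e9 and 2.5e8 minus mRBC-CTRL, 0.224 for mRBC-CTRL tumor minus blood, 0.423 in cured mice from day 73 to 126 (past 0.05) and −0.0480 in naïve mice. Without 1-template rearrangements, day 0 blood gave 0.139 (1e9) and 0.291 (2.5e8), tumors 0.817 (2.5e8), day 7 minus day 0 at 1e9 1.04, tumor minus blood 0.244 (mRBC-CTRL) and 0.155 (2.5e8), the EL4 challenge 0.0739, naïve mice −0.405 and cured minus naïve mice after EG7.OVA 0.333. With a named D only, day 7 minus day 0 was −0.202 (2.5e8) and 0.0135 (1e9), tumor minus blood at 1e9 0.0242 and naïve mice −0.0191. Allowing 1 inserted base gave 0.312 and −0.852 for day 0 and day 7 blood at 1e9, −0.165 and 0.475 for tumors at 1e9 and 2.5e8, −0.146 for day 7 minus day 0 at 2.5e8, −0.430 in cured mice from day 73 to 126 and 0.304 around EL4. Mean ranks differed by −0.2 and 1 for tumors at 1e9 and 2.5e8 and by −0.6 in naïve mice.

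Clone size in blood reversed to −0.678 without shared rearrangements and −3.92 with length weighting. In tumors it was −0.867 templates as a mean, 1.47 without shared rearrangements (not past 0.05) and −2.02 with length weighting. V calls numbered 7 among non-productive rearrangements, 8 at adjusted p under 0.01 and 4 in tumors, instead of 13, and J calls 1 in tumors, instead of 7. Among alternatives chosen after seeing the data, the template share in cured mice around EG7.OVA was −1.02 without 1-template rearrangements (exact p = 0.0625).

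Leaving out 1 mouse at a time gave −0.257 to 0.258 in naïve mice, −0.235 to 0.0400 around EL4, −0.582 to 0.0377 in day 0 blood at 1e9, −0.260 to 0.287 and −0.267 to 0.302 in tumors at 1e9 and 2.5e8, −0.827 to 0.166 and −0.168 to 0.0203 in mRBC-CTRL mice over time and for tumor minus blood, −0.237 to 0.176 and −0.718 to 0.0602 for the same at 1e9, and −0.554 to −0.263 for cured minus naïve mice after EG7.OVA, where leaving out cured mouse 2 passed 0.05. Without a change of direction or call, the range was −0.644 to −0.0241 in day 0 blood at 2.5e8, 0.0254 to 0.447 and 0.168 to 0.595 in day 7 blood at 1e9 and 2.5e8, 0.0177 to 0.377 over time and −0.801 to −0.115 for tumor minus blood at 2.5e8, −0.440 to −0.148 for tumor minus blood over all arms, 0.000472 to 0.351 for cured minus naïve mice before EG7.OVA, −0.808 to −0.293 for the difference of their changes, and −0.725 to −0.386 and 0.240 to 0.417 in cured mice around and after EG7.OVA. Mouse numbers shared between arms are only names. Under a replicate block on that number, 9 comparisons between mice kept their direction and their side of 0.05 (tumors at 1e9 minus mRBC-CTRL 0.0813, exact p = 0.875), as did the 11 within mice without the block.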

Other observations

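The shares of TCRBJ02-07 and TCRBV04-01 among rearrangements without N insertions are given for tumors and day 7 blood as values without a test, and their ranges over mice overlapped between the tissues in each arm. TCRBJ02-07 made up 18.1% ± 1.39, 20.5% ± 3.41 and 19.7% ± 4.91 of them in tumors of the mRBC-CTRL, 2.5e8 and 1e9 arms and 15.8% ± 1.64, 17.0% ± 1.82 and 15.01% ± 2.53 in day 7 blood. TCRBV04-01 made up 2.00% ± 1.00, 1.19% ± 1.30 and 0.959% ± 1.59 in tumors and 2.05% ± 0.366, 2.54% ± 1.22 and 3.32% ± 1.07 in blood. In-frame rearrangements with a stop codon, 6127 entries used in no comparison, had no N insertions in 5.32%.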
